A study of Homo sapiens with 6 samples.

Results

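Metallothioneins are small cytosolic proteins, very rich in cysteine, that bind zinc and copper and also capture cadmium. Their genes sit side by side on chromosome 16 and are switched on when free zinc rises: zinc occupies the fingers of the transcription factor MTF1, which then binds metal response elements in their promoters. In kidney epithelium they buffer zinc and copper and bind cadmium, and glucocorticoids and inflammatory cytokines are known inducers in several tissues. The genes described here are MT2A, MT1X, MT1E, MT1F, MT1G, MT1M, MT1A, MT1H and MT1L of the chromosome 16 cluster, plus MTF1 on chromosome 1. MT1L is a pseudogene. They were picked by symbol, 10 of the 61541 genes that the count files list.

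RCC4 is an established human line from clear cell carcinoma of the kidney, labelled as epithelial. The untreated group held 3 libraries, from cells grown without added cytokine. The IFNγ + TNF group held 3 libraries, from cells exposed for 24 h to interferon gamma at 1000 U/mL and tumour necrosis factor at 25 ng/mL together. All 6 came from the same line in the same medium, no library received 1 cytokine alone, and each biological replicate was drawn from 3 flasks. Poly(A)-selected RNA was read strand by strand on nanopores, without copying to cDNA, so that 1 read stands for 1 RNA molecule. Counts are given below as they stand in the files, or as CPM (the usual depth-scaled count, with library sizes adjusted by the trimmed mean of M-values, TMM). Total counts per library ran from 3626000 to 4406296. A count of 0 therefore allowed at most 0.681 to 0.827 unscaled CPM per library, taken as 3 counts and covering counting error alone.

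The label was checked against marker genes. Of 10 renal carcinoma and epithelial markers 9 had counts, and their summed level ran from 7268 to 9014 CPM in untreated and from 10799 to 15540 CPM in treated libraries; LRP2, a receptor of the normal proximal tubule, was at 0. Most of that difference came from VIM, a mesenchymal filament gene (4594 to 7279 CPM), and NNMT (994.6 to 3101 CPM), both called higher by edgeR (adjusted p 0.0273 and 0.000854). The renal factor gene PAX8 and the keratin gene KRT19 were called lower (edgeR adjusted p 0.0316 and 0.00995), and the part of these markers in the metallothionein difference was not tested. All 4 endothelial markers and 5 of 7 immune markers, PTPRC among them, were at 0 in all 6 libraries, and the immune list summed to at most 2 counts in a library. The fibroblast list held COL1A1 only (24.4 to 63.0 CPM), with COL1A2, COL3A1, DCN, LUM and PDGFRA at 0. Same-strand exons of other genes cover 81.6% of the exonic bases of CD68, an immune marker at 0, and 16.1% of those of PDGFRA. Reads that reach shared bases could have been left uncounted, so these zeros are weaker.

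The coding sequences are shown because these genes are closely alike, which could make their reads hard to tell apart. The 4 below, read from GENCODE 29 on GRCh38 from start to stop codon, are those of the metallothionein genes with counts in every library; capitals mark the cysteine codons (TGC or TGT).
MT2A, chr16:56608656-56609354, plus strand: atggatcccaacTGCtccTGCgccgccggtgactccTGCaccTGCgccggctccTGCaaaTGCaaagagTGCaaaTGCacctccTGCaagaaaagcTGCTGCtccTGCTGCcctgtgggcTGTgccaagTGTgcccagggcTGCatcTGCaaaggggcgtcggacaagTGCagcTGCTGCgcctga
MT1E, chr16:56625852-56626971, plus strand: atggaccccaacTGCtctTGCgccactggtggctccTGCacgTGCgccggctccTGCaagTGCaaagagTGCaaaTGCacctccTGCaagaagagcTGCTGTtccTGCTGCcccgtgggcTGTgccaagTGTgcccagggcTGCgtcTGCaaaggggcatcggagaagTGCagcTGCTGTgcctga
MT1F, chr16:56658059-56659164, plus strand: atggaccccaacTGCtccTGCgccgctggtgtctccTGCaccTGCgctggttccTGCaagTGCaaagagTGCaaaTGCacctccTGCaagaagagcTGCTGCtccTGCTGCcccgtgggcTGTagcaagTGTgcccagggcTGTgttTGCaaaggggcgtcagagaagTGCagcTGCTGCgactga
MT1X, chr16:56682541-56684049, plus strand: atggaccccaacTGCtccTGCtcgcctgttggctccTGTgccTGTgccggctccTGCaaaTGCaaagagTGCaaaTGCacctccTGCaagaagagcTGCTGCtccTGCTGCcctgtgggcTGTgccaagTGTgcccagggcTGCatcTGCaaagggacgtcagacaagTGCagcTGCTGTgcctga

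Each of the 4 coding sequences holds 61 codons before the stop, of which 20 (32.8%) encode cysteine, the residue that holds the metal. Among the 8 members with an open coding sequence, the 28 pairs were between 88.7% and 94.6% identical over it. MT1E and MT1A were the closest pair, with 10 differing alignment columns, and MT1X and MT1F the most distant, with 21. The last 150 bases of the transcripts, where nanopore RNA reads begin, were less alike, from 65.4% identical for MT1X and MT1A to 87.7% for MT1E and MT1M. MT1E and MT1M are therefore the pair whose reads are most alike at that end. Reads of such paralogs could have been split among them or left uncounted, and how many were was not tested.

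Metallothionein counts stood higher in the cytokine-treated libraries, and nearly all of them were MT2A. Full-length MT1X reads may be uncounted, for a reason given below, so the sums here cover counted reads alone. Summed over the 9 metallothionein members, the level was 6660, 5540 and 3475 CPM in untreated replicates 1, 2 and 3. With cytokines it was 21030, 15138 and 17781 CPM in the same order. The lowest treated library exceeded the highest untreated one, and the means were 5225 ± 1615 and 17983 ± 2951 CPM (SD, n = 3 each), a 3.44-fold ratio. As a share of all counts, metallothioneins went from 0.535% ± 0.138 to 1.73% ± 0.197. The members were chosen with their difference between these groups already known, so these values and the member differences that follow are given as a description.

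**Figure D1:**
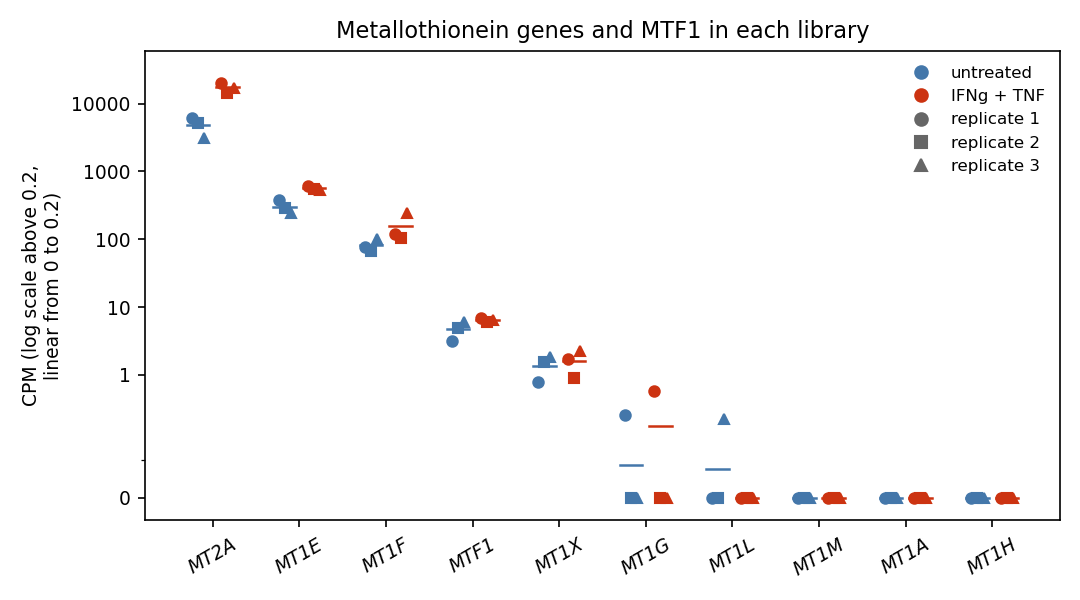
CPM of the 10 genes in each library (points; circles, squares and triangles are replicates 1, 2 and 3, horizontal lines the group means, n = 3), on an axis that is logarithmic above 0.2 CPM and linear below. MT2A, MT1E and MT1F hold nearly all the counts, with the treated points (red) above the untreated ones (blue), and MT1M, MT1A and MT1H lie at 0. MT1X counts may miss full-length reads.

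MT2A (ENSG00000125148; chr16:56608584-56609497), the main metallothionein of most human tissues, had 23818, 20148 and 13801 counts in untreated replicates 1, 2 and 3 and 70655, 64438 and 59901 in the treated ones. These are 6205, 5184 and 3127 CPM against 20306, 14475 and 17003 CPM. The 2 groups did not overlap; untreated replicate 3 was the lowest library and treated replicate 1 the highest. The log2 fold change was 1.83 (SE 0.25), and it lay between 1.59 (without untreated replicate 3) and 2.08 (without untreated replicate 1) when single libraries were left out. Ranked by CPM among all genes, MT2A stood at places 11, 17 and 37 in the untreated libraries. It stood first in treated replicates 1 and 2 and at place 2 in treated replicate 3.

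MT1E (ENSG00000169715; chr16:56625475-56627112) had 1447, 1117 and 1087 counts in untreated and 2097, 2483 and 1870 counts in treated replicates 1, 2 and 3. On the CPM scale these are 377, 287.4 and 246.3 against 602.7, 557.8 and 530.8. Again the groups did not overlap, and the treated libraries lay closer together than the untreated ones. The mean went from 303.6 ± 66.8 to 563.7 ± 36.3 CPM (SD, n = 3 each). That is 0.89 on the log2 scale (SE 0.19).

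MT1F (ENSG00000198417; chr16:56657731-56660698) had 293, 262 and 439 counts in untreated and 415, 465 and 865 counts in treated replicates 1, 2 and 3. On the CPM scale these are 76.3, 67.4 and 99.5 against 119.3, 104.5 and 245.5. The groups did not overlap, but the gap between the highest untreated library (99.5 CPM) and the lowest treated one (104.5 CPM) was small. Replicate 3 was the highest library of both groups. The log2 fold change of 0.95 (SE 0.33) became 0.47 without treated replicate 3 and 0.64 without replicate 3 of both groups.

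MTF1 (ENSG00000188786; chr1:37809574-37859592), the zinc-sensing activator, was read 12, 19 and 27 times in untreated and 24, 27 and 23 times in treated libraries. The mean level was 4.71 ± 1.504 CPM without and 6.50 ± 0.417 CPM with cytokines (SD, n = 3 each). The groups overlapped, and the log2 fold change was 0.45 (SE 0.35). MTF1 is regulated largely through zinc binding, and its transcript level says nothing of that state.

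Of the 10 members, 4 had enough counts to enter the fit over all genes: MT2A, MT1E, MT1F and MTF1. With the edgeR fit and a threshold of 0.05 on the adjusted p, 2 of these 4 (MT2A and MT1E) were called higher and 0 lower. Over the 10067 genes tested, 8.14% were called, 5.58% higher and 2.55% lower. The treated libraries lay wholly above the untreated ones for 3 of the 4, against 13.9% of all genes tested (25.9% did not overlap in either direction). The median log2 fold change was 0.92 over the 4 members and -0.03 over all genes tested. Nothing is read from these counts, because the members were chosen on this contrast.

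The remaining 6 members had few counts or none. MT1X (ENSG00000187193; chr16:56682470-56684196) was read 3, 6 and 8 times in untreated replicates 1, 2 and 3 and 6, 4 and 8 times in the treated ones, with fully overlapping groups. Its mean was 1.38 ± 0.535 CPM in untreated and 1.63 ± 0.691 CPM in treated libraries (SD, n = 3 each). MT1G had 1 count in untreated replicate 1 and 2 counts in treated replicate 1. MT1L had 1 count, in untreated replicate 3. MT1M, MT1A and MT1H were at 0 in all 6 libraries. At this depth these 5 genes cannot be compared between the groups.

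MT1X counts carry a further limit that the file's own gene models show. The noncoding gene ENSG00000259827 starts at the same base as MT1X on the same strand. Its exons cover all 99 bases of MT1X exon 1 (chr16:56682470-56682568) and all 66 bases of exon 2 (chr16:56683165-56683230), and 0 of the 239 bases of exon 3 (chr16:56683958-56684196). That makes 165 of the 404 bases (40.8%) of the MT1X messenger RNA. The headers show no option to count a read for several genes, and the program by default drops a read that touches exons of 2 genes. A full-length MT1X molecule would then be counted for neither gene, while one whose read stays within exon 3 would be counted for MT1X. ENSG00000259827 itself had 0 counts in all 6 libraries. The MT1X counts are therefore not a measure of its level, and neither presence at a high level nor absence can be read from them. No exon of MT2A, MT1E, MT1F, MT1G, MT1M, MT1A, MT1H, MT1L or MTF1 shared a base with another gene on its strand.

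Levels of different genes were set in order in CPM and per kilobase of the exonic length in the gene models. A direct RNA read stands for 1 molecule whatever its length, so the values per kilobase need not follow the number of molecules. In untreated cells MT2A stood at 5294 CPM per kb, MT1E at 288.6 and MT1F at 43.8, and in treated cells at 18885, 535.9 and 84.5 CPM per kb. MT2A, MT1E and MT1F kept this order on both scales in both groups, and their neighbours in it differed by more than their spread. The order of MTF1 and MT1X turned with the scale. In CPM, MTF1 stood above MT1X in both groups without overlap; per kilobase it stood below, at 0.590 against 0.799 in untreated and 0.813 against 0.945 in treated cells. No order is read for these 2, since the MT1X counts carry the limit given above.

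Among the counted reads of the family, the balance moved towards MT2A. MT1X reads may be missing from the total by the limit given above, so the shares below need not be those of the family's RNA. MT2A made up 93.2%, 93.6% and 90.0% of metallothionein counts in untreated replicates 1, 2 and 3 and 96.6%, 95.6% and 95.6% in treated ones. MT1E made up 5.66%, 5.19% and 7.09% in untreated and 2.87%, 3.68% and 2.99% in treated libraries, with no overlap between the groups. MT1F made up 1.15%, 1.22% and 2.86% in untreated and 0.567%, 0.690% and 1.38% in treated libraries, and here the groups overlapped. There were 15.7 ± 2.74 MT2A reads per MT1E read in untreated and 30.6 ± 4.08 in treated cells (SD, n = 3 each), although both genes stood higher in treated cells. A ratio of this kind within a library does not depend on how libraries are scaled. The metallothioneins without MT2A summed to 386.2 ± 59.2 CPM without and 722.0 ± 57.8 CPM with cytokines, a 1.87-fold ratio against the 3.44-fold ratio with it.

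**Figure D2:**
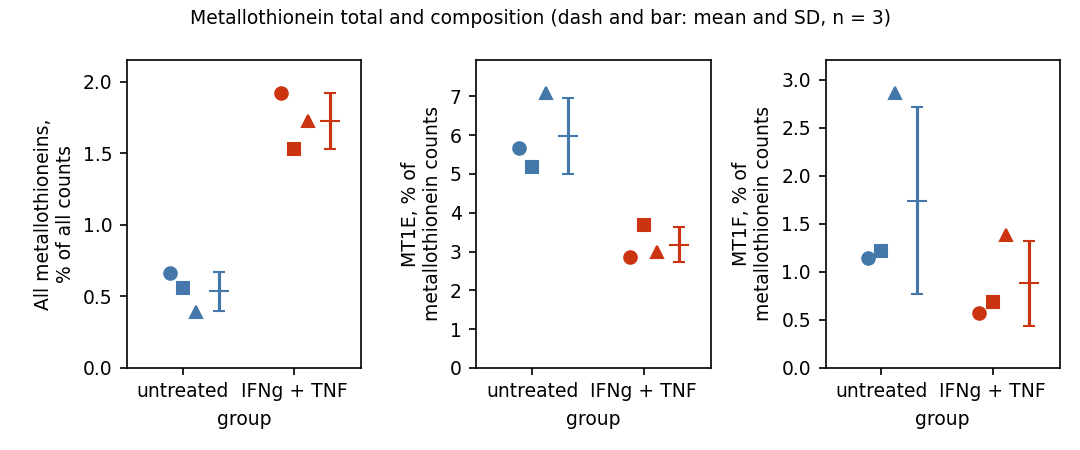
Metallothionein counts as a percentage of all counts (left), and MT1E (middle) and MT1F (right) as a percentage of metallothionein counts, by group; circles, squares and triangles are replicates 1, 2 and 3, dash and bar the mean and SD (n = 3). The total is higher in all 3 treated libraries, the MT1E share lower in all 3, and the MT1F share is highest in replicate 3 of both groups.

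The spread of replicates within a group was not used to choose the members. The members did not move together in replicate 3. It was the farthest library from the group mean for MT1F in both groups and for MT2A in untreated cells, while for MT2A in treated cells it was the nearest. MT1F lay above its group mean in replicate 3, by 0.31 on the log2 CPM scale in untreated and by 0.76 in treated cells. MT2A in replicate 3 was 0.57 below its group mean in untreated cells and 0.01 below it in treated cells, and MT1E was 0.28 and 0.08 below. MT1F was read 1 time for every 31.4 MT2A reads in untreated replicate 3, against 81.3 and 76.9 in replicates 1 and 2. In treated cells the figures were 69.2 in replicate 3 against 170.3 and 138.6. Replicates also differed for genes outside the family. HSP90AA1, of the stress list below, stood at 81.8, 323.7 and 426.7 CPM in untreated replicates 1, 2 and 3. In the treated ones it stood at 106.0, 442.8 and 256.3 CPM. It was lowest in replicate 1 of both groups, where MT2A was highest. HSPB1, of the same list, was lowest in other replicates. HSP90AA1 was picked after its values were seen, and a part of library differences in the MT2A spread was not tested.

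HMOX1, which encodes the heme-degrading enzyme heme oxygenase 1 and is known to be induced by metals and oxidants, shared with MT1F a high replicate 3. It had 422, 446 and 1530 counts in untreated and 253, 287 and 1936 counts in treated replicates 1, 2 and 3. Replicate 3 was the highest library in both groups for both genes, while in replicates 1 and 2 HMOX1 was lower and MT1F higher in treated than in untreated cells. HMOX1 was singled out after its values were seen, and its part in the MT1F difference was not tested.

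**Figure D3:**
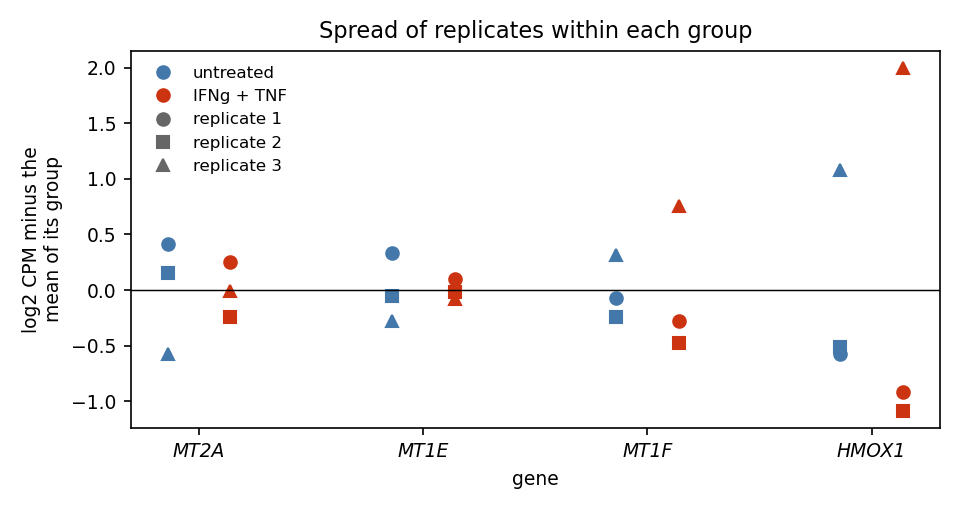
Distance of each library from the mean of its own group in log2 CPM (prior count 2), for MT2A, MT1E, MT1F and HMOX1; blue is untreated, red IFNγ + TNF, and triangles are replicate 3. The triangles are highest for MT1F and HMOX1 in both groups, and lowest for MT2A and MT1E in untreated cells.

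A further 11 metallothionein genes and pseudogenes that the choice left out were looked up in the files. MT3 (the brain form), MT4 (the form of stratified epithelium), MT1B, MT1HL1, MT1JP, MT1CP, MT1IP and MT1P3 had 0 counts in all 6 libraries. The other 3 were the pseudogenes MT1DP, MT1XP1 and MT1P1, with at most 4 counts in a library. MT1DP was read 0, 0 and 1 times without and 0, 4 and 2 times with cytokines in replicates 1, 2 and 3. Of the 20 metallothionein genes and pseudogenes looked up in all, MT2A, MT1E and MT1F alone had more than 8 counts in any library.

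Promoters were compared because metallothionein genes answer zinc through them. RefSeq (GRCh38.p14) sequences were at hand for MT2A, MT1X, MT1H and MTF1 among the members; MT1E, MT1F, MT1G, MT1M, MT1A and MT1L were not matched. The 250 bases before the start are shown 5′ to 3′ for MT2A, the member with the most counts, MT1H, at 0 counts, and MT1X. Capitals mark the core of the metal response element, searched as TGCACNC or TGCGCNC on both strands.
MT2A, chr16:56608334-56608583, plus strand: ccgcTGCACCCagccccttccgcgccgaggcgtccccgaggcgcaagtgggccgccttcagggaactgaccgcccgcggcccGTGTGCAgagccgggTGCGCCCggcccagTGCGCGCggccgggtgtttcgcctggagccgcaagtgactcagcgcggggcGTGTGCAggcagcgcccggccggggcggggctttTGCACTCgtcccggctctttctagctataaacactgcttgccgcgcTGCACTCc
MT1H, chr16:56669564-56669813, plus strand: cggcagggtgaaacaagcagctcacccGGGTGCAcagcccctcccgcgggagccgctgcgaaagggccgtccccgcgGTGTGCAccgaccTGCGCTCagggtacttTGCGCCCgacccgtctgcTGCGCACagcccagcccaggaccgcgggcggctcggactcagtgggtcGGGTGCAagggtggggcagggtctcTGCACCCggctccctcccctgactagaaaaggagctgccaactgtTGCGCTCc
MT1X, chr16:56682220-56682469, plus strand: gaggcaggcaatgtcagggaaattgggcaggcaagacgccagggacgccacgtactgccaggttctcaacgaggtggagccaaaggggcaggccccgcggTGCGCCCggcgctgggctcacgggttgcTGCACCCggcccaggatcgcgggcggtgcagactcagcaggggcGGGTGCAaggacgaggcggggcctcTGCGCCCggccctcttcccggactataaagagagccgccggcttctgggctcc

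The MT2A window held 7 matches to this core, the MT1H window 8 and the MT1X window 4, while that of MTF1 held 0. Among 35116 promoter windows of the same length, 24.8% held at least 1 match, 0.370% at least 4 and 0.0313% (11 windows) at least 7. MT2A and MT1H were thus alike in matches and far apart in counts. Of the motifs known for the 2 cytokines, the interferon gamma-activated site GAS, searched as TTCNNNGAA, had 1 match in the MT2A window (letters TTCAGGGAA, 194 to 186 bases before the start) and 0 in those of MT1H, MT1X and MTF1. MT4, at 0 counts in all 6 libraries, also had 1 (letters TTCCCTGAA, 243 to 235 bases before the start). GAS was found in 6.57% of all windows. The interferon-stimulated response element (TTTC, any 2 bases, TTTC; 3.02% of all windows) and the NF-kappaB motif (9.96%) had 0 matches in all 4. A match is a run of letters in a short window, and shows neither binding nor a cause.

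Expression of the genes around the cluster was looked at next, a choice made after the data were examined. Within 500 kb of the MT2A start 34 genes that are no metallothionein were considered, of which 6 were tested. OGFOD1 and NUP93, both close to the cluster, had log2 fold changes of 0.05 (edgeR adjusted p 0.934, with an SE of 0.17) and 0.08 (edgeR adjusted p 0.916, with an SE of 0.22). HERPUD1, CPNE2 and NUDT21 did not pass the threshold either. NLRC5, the activator of class I antigen presentation genes, was the 1 neighbour called higher, against 5.58% of all genes tested, and 0 were called lower. Its mean rose from 11.8 ± 1.06 to 100.5 ± 15.99 CPM (SD, n = 3 each; on the log2 scale 3.09, SE 0.21, edgeR adjusted p 3.62e-05).

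**Figure D4:**
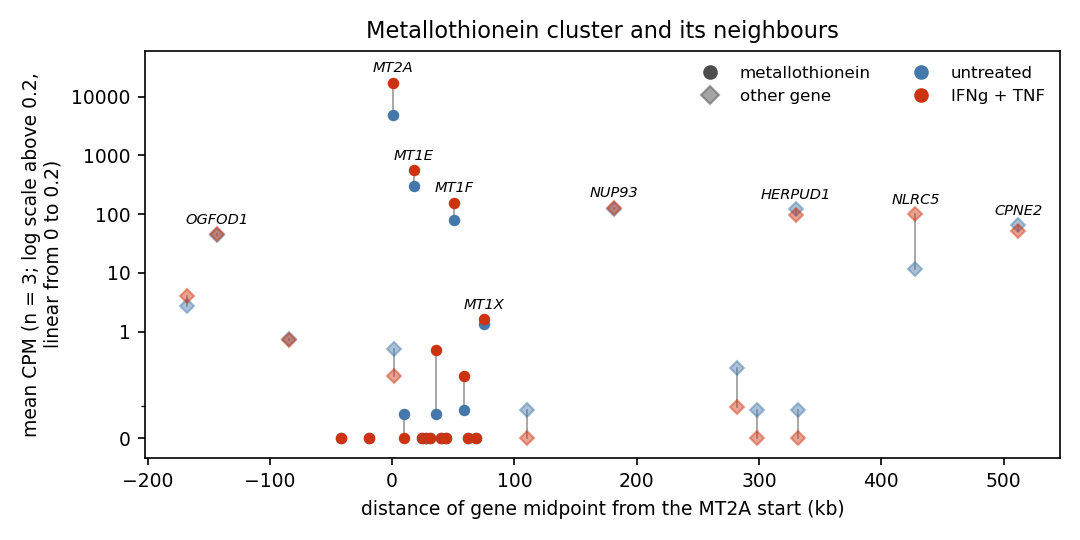
Mean CPM (n = 3) of metallothioneins (circles) and other genes with at least 1 count (diamonds) against the distance of the gene's midpoint from the MT2A start in kb; blue is untreated, red IFNγ + TNF, and the axis is logarithmic above 0.2 CPM and linear below. MT2A, MT1E and MT1F stand higher in treated cells, and of the neighbours NLRC5 has the widest gap.

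Genes that share a pathway with the metallothioneins were then tested: zinc and copper transport, other known targets of MTF1, metal and heat stress, and the glucocorticoid response. These genes were not used in choosing the members, but the lists were drawn up with earlier results of these data known. Of 62 such genes 45 were tested, and the edgeR quasi-likelihood fit, adjusted over all genes by Benjamini-Hochberg, called 0 higher and 2 lower (SLC30A5 and CRISPLD2), against 5.58% and 2.55% of all genes tested. At an unadjusted p under 0.05 there were 5 higher and 6 lower of the 45, against 11.0% higher and 8.85% lower of all genes tested. DESeq2 called 1 higher (SCO2) and limma voom 0 higher, and each called the same 2 genes lower. The median log2 fold change of the 45 was -0.04, beside -0.03 for all genes tested.

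Most members of the SLC30 family move zinc out of the cytosol, either from the cell or into organelles. SLC30A5, which loads zinc into the secretory pathway, fell from 47.8 ± 2.75 to 26.6 ± 2.74 CPM (SD, n = 3 each; on the log2 scale -0.84, SE 0.19, edgeR adjusted p 0.0254). Its untreated libraries held 177, 198 and 204 counts and its treated ones 102, 119 and 84, without overlap. The call was lost in 5 of the 6 fits without 1 library, at an edgeR adjusted p of 0.0815 without untreated replicate 1, 0.132 without untreated replicate 2 and 0.0597, 0.105 and 0.128 without treated replicates 1, 2 and 3. SLC30A1, the plasma membrane zinc exporter and a known MTF1 target, was read 26, 35 and 50 times without and 38, 86 and 58 times with cytokines, and the groups overlap. Its log2 fold change was 0.78 (SE 0.31) and it did not pass the threshold (edgeR adjusted p 0.201, and 0.0632 to 0.442 over 13 alternatives). SLC30A7, which serves the Golgi, had a log2 fold change of 1.24 (edgeR adjusted p 0.142, with an SE of 0.43). Its levels were low, from 8 to 40 counts a library, and the groups did not overlap. At an edgeR unadjusted p under 0.05, 2 of the 5 tested genes of the family were higher (SLC30A1 and SLC30A7) and 1 lower (SLC30A5). The shares over all genes tested were 11.0% higher and 8.85% lower. SLC30A6 and SLC30A9 also did not pass, SLC30A4 was below the filter, and the other 4 genes of the family had 0 counts.

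The SLC39 family brings zinc into the cytosol. Of its 14 members 10 were tested and 0 called, in DESeq2 and limma voom as well. At an edgeR unadjusted p under 0.05, 0 were higher and 1 lower (SLC39A7), against 11.0% and 8.85% of all genes tested. SLC39A7, which releases zinc from the endoplasmic reticulum, and SLC39A4 were its tested members with the highest mean CPM, with log2 fold changes of -0.49 (edgeR adjusted p 0.129, with an SE of 0.17) and -0.35 (edgeR adjusted p 0.343, with an SE of 0.18). SLC39A7 was called lower when libraries were scaled to their totals alone (edgeR adjusted p 0.0349). SLC39A10, which MTF1 is known to repress, was read 8, 10 and 34 times without and 2, 12 and 4 times with cytokines, and missed the threshold (-1.43 on the log2 scale, SE 0.68, edgeR adjusted p 0.291). Same-strand exons of another gene cover 60.8% of the exonic bases of SLC39A1, which had at most 1 count in a library.

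In copper handling 11 of 13 genes were tested and 0 called, with 3 higher and 2 lower at an unadjusted p under 0.05. Over all genes tested, 11.0% were higher and 8.85% lower at that edgeR unadjusted p. SOD1, the copper and zinc superoxide dismutase, and the copper chaperone ATOX1 were its tested genes with the highest mean CPM, with log2 fold changes of 0.05 (edgeR adjusted p 0.934, with an SE of 0.16) and 0.44 (edgeR adjusted p 0.222, with an SE of 0.18). SCO2, which delivers copper to cytochrome c oxidase, was read 491, 467 and 278 times without and 888, 788 and 628 times with cytokines. Its log2 fold change was 0.97 (edgeR adjusted p 0.0757, with an SE of 0.28), and limma voom did not call it either (adjusted p 0.0697). It was called by DESeq2 (adjusted p 0.0177), and by edgeR with every gene of at least 1 count tested (adjusted p 0.00069) and without replicate 3 of both groups (adjusted p 0.0441). Exons of TYMP on the same strand cover 26.1% of the exonic bases of SCO2. TYMP had 0, 0 and 1 counts in untreated and 1, 0 and 2 counts in treated replicates 1, 2 and 3. SCO2 reads that reach the shared bases could have been left uncounted, and how many were was not tested. Of 7 other MTF1 targets 4 were tested and 0 called, with 1 higher (SLC30A1) and 0 lower at an unadjusted p under 0.05 and 0 called in DESeq2 or limma voom. CSRP1, a LIM domain protein and the highest of these in CPM, had a log2 fold change of 0.41 (edgeR adjusted p 0.421, with an SE of 0.24).

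All 10 genes of the metal and heat stress list were tested, and 0 were called, 0 also in limma voom. At an edgeR unadjusted p under 0.05 there were 0 as well, against 11.0% higher and 8.85% lower of all genes tested. DESeq2 called 0 of 9 and gave no p for HMOX1. The small heat shock protein gene HSPB1 and the constitutive chaperone HSPA8, its highest members in CPM, had log2 fold changes of -0.02 (edgeR adjusted p 0.973, with an SE of 0.16) and 0.18 (edgeR adjusted p 0.724, with an SE of 0.19). HMOX1 differed by 0.26 on the log2 scale without passing the threshold (edgeR adjusted p 0.921, with an SE of 0.80), a value that rests on replicate 3. It was -0.71 without replicate 3 of both groups, which passed the threshold (edgeR adjusted p 0.0397), -1.47 without treated replicate 3 and 1.03 without untreated replicate 3. With all 6 libraries kept it was -0.27 in limma voom, so no direction is read.

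Metallothionein promoters are known to answer glucocorticoids, and of 10 glucocorticoid-responsive genes 7 were tested. CRISPLD2 fell, from 147.2 ± 50.6 to 21.7 ± 2.62 CPM (SD, n = 3 each; on the log2 scale -2.76, SE 0.27, edgeR adjusted p 0.000301). The receptor gene NR3C1 and FKBP5, a chaperone of that receptor, had log2 fold changes of -0.57 (edgeR adjusted p 0.664, with an SE of 0.53) and 0.15 (edgeR adjusted p 0.826, with an SE of 0.22). DUSP1, a phosphatase gene and the highest of the list in CPM, had a log2 fold change of -0.07 (edgeR adjusted p 0.934, with an SE of 0.24). TSC22D3, the leucine zipper known as GILZ, had one of -1.21 (edgeR adjusted p 0.215, with an SE of 0.50). Of the list, edgeR, DESeq2 and limma voom each called 0 genes higher and 1 lower (CRISPLD2). At an edgeR unadjusted p under 0.05, 0 were higher and 2 lower (CRISPLD2 and TSC22D3), against 11.0% and 8.85% of all genes tested. A part of glucocorticoids in the metallothionein difference was not tested.

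**Figure D5:**
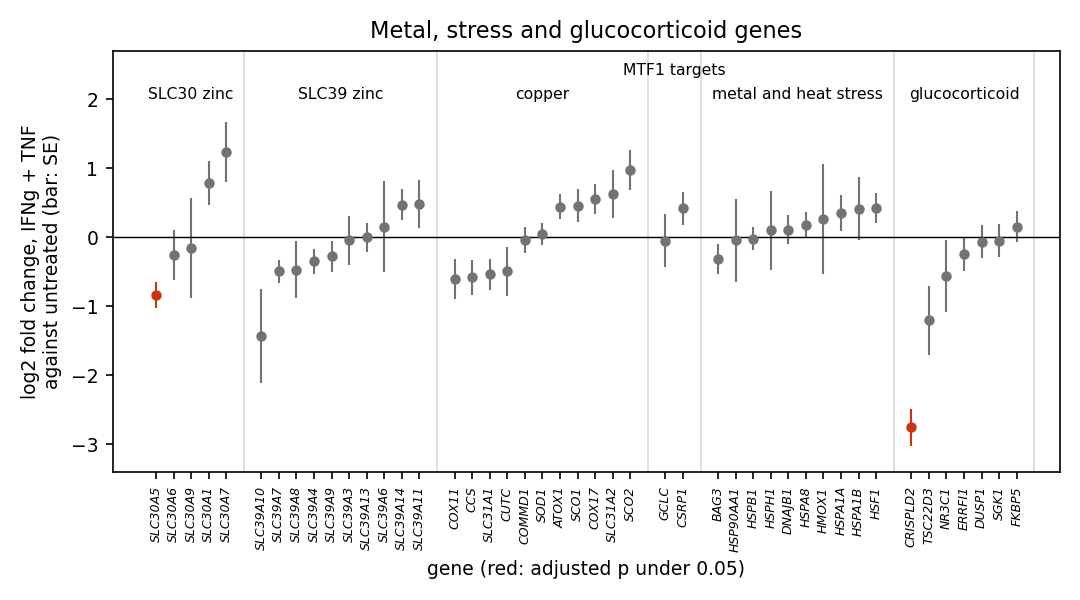
Log2 fold change (IFNγ + TNF against untreated, n = 3 each) with its SE for the 45 tested genes of metal transport, stress and glucocorticoid response; red marks an edgeR adjusted p under 0.05. Genes on several lists appear once, SLC30A1 and SLC39A10 among the zinc transporters, and SLC30A5 and CRISPLD2 are the red points, both below 0.

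Genes whose levels ran most like MT2A were named by a fixed measure, Pearson's r of log2 CPM over the 6 libraries, among the 6744 genes whose mean reached 10 CPM. They were JADE2 (r = 0.999), FAM110A (0.997), GUK1 (0.997), CDC25B (0.996) and CBR3 (0.995). GUK1, a guanylate kinase, went from 410.5 ± 80.6 to 882.2 ± 116.9 CPM (SD, n = 3 each), and CBR3, a carbonyl reductase, from 35.3 ± 9.57 to 85.5 ± 14.3 CPM. MT1E had r = 0.98 with MT2A, and MT1F r = 0.62. When the group means were taken out, the genes that ran most like the summed metallothioneins were NMB, GEMIN7, ELP5, FMNL1 and MYDGF, each at an r of at least 0.998. These are descriptions over 6 points that share library, depth and, in the first measure, the treatment, and the genes were taken as the extremes of all those compared.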

How the data were processed

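Direct RNA nanopore reads of poly(A) RNA from 3 untreated and 3 IFNγ + TNF-treated RCC4 cultures were counted by the submitters. The libraries took 500 ng of RNA and ran for 72 h, and reads with a quality above 7 were used, per the labels and the series design text. Deposited values are raw counts of reads for each gene, from featureCounts 2.0.1 run in long-read mode on exons of Ensembl release 105 (GRCh38), strand-specific, per the file headers. The submitters' processing notes name minimap2 2.24, SAMtools 1.16 and featureCounts 2.0.0. Alignment names in the headers carry the word dmso, which no label explains; groups came from sample titles. Symbols were matched for 61369 of 61541 gene IDs.

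The counts were fitted with edgeR 4.0.16 (R 4.3.3): quasi-likelihood F test, TMM, filterByExpr, group as the sole term, Benjamini-Hochberg adjustment over all genes, threshold 0.05. SE is the absolute log2 fold change over the square root of F. The fit was tested on simulated counts. Alternatives were DESeq2 size factors, library totals, every gene with at least 1 count, a replicate block, DESeq2 1.42.0, limma 3.58.1 voom and leaving out each library; leaving out replicate 3 of both groups was added after the data were examined. The p-values measure the spread between cultures of 1 line.

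Members and gene lists were chosen with earlier results of these data known. Genes named are the members, all other metallothioneins, list genes called or among the 2 of a list with the highest mean CPM, and look-alike genes; HMOX1, SCO2, SLC30A7, SLC39A10, TSC22D3, other list genes and the neighbours were named after their values were seen. In the window around MT2A, 1 tested gene is left out of the counts and not reported here.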

Additional observations from a re-analysis of the deposited data

How the results depend on the processing

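The log2 fold changes of MT2A, MT1E, MT1F and MTF1 kept their direction in all 13 alternatives. They ranged from 1.59 to 2.08 for MT2A, from 0.75 to 1.10 for MT1E, from 0.47 to 1.22 for MT1F and from 0.26 to 0.69 for MTF1. All moved by less than 1 SD between replicates. Leaving out 1 of 3 libraries can hardly move a group mean by that much, so stability is not read from it. MT1F, at 0.95 with all libraries, became 0.47 without treated replicate 3. The log2 ratio of the metallothionein sum was 1.78, and 0.90 when summed without MT2A, by construction; leaving out 1 library gave 1.56 to 2.00. The count of genes called, 819, was 1328 with every gene with at least 1 count tested and 1512 with the replicate number as a block, and 455 to 1178 without 1 library, lowest without treated replicate 3 and 465 without untreated replicate 2. Scaling to library totals gave 852 genes, 489 higher and 363 lower against 562 and 257; the median over all genes then shifted by -0.10 in log2. The cause was not tested. Of the listed metal and stress genes 2 were called, 4 with the replicate block (SCO2 higher, and SLC30A5, CRISPLD2 and TSC22D3 lower), 3 without replicate 3 of both groups and 1 to 2 without 1 library. HMOX1, at 0.26, reversed without replicate 3 of both groups, at -0.71; it was also below 0 with the replicate block (-0.23) and in limma voom (-0.27), and single libraries left out gave -1.47 to 1.03. Same-numbered libraries deviated from their group means with correlations of 0.65, -0.0037 and 0.37, and untreated replicates 2 and 3 correlated best with another number, so the numbers were not taken as pairs. Members with 3 counts or fewer in a library cannot be resolved at this depth.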
